A study of Mus musculus with 6 samples.

Results

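Spink4 encodes a Kazal-type serine protease inhibitor (serine peptidase inhibitor, Kazal type 4), and its level was followed here in mouse hearts at embryonic day 16.5. It is 1 of the 18193 genes to which the array's annotation gives a probe set of their own. All probe sets annotated to Spink4 alone were taken, which is 1 (1427119_at) of the 45037 non-control probe sets, and 0 others name Spink4 together with a second gene. The gene was chosen by its own intensities on these arrays, low in wild type and high in mutants. Its genotype difference is therefore described without a test.

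The arrays compare 3 wild-type heart samples with 3 FOG-2 R3K5A heart samples, called mutants from here on. Both genotypes are siblings from crosses of heterozygous parents, and the strain background is mixed (C57/B6, 129 S6). Whole hearts were used and 3 µg of total RNA was labelled for each array. The labels give neither the zygosity of the mutants nor whether a replicate was a single heart. The p-values set the genotype difference against the spread among samples of the same genotype, which may therefore be partly technical. In whole hearts, fewer cells of a type and less RNA per cell cannot be told apart.

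Kazal-type inhibitors are short secreted proteins whose exposed loop sits in the active site of trypsin-like proteases and blocks it. Spink4 is known as a product of mucus-secreting cells, above all the goblet cells of the intestine, and is not a known heart gene. FOG-2, encoded by Zfpm2, is a partner of GATA4 in heart muscle. It is known to recruit NuRD, a chromatin remodelling complex that often represses genes, and the R3K5A allele was designed to break that contact. The 12 cardiomyocyte markers examined, among them Myh6, Tnnt2 and Nppa, were above the level used as a filter (6.30 log2 units, an intensity of 78.9) on all 6 arrays.

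Correlations between arrays over the 11113 genes tested were 0.982 to 0.986 within wild type and 0.990 to 0.995 within mutants. Wild-type replicate 1 was the wild-type array most like the mutants. It correlated with the mutants at 0.984 to 0.990 and with the other wild-type arrays at 0.982 to 0.986. Wild-type replicates 2 and 3 correlated with the mutants at 0.983 at most. No pair of arrays shared more than 46 identical values above the floor.

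In wild-type hearts the Spink4 probe set read intensities of 33.3, 28.5 and 18.9 in replicates 1, 2 and 3. In mutant hearts it read 702, 636 and 598. The genotypes were far apart, and the lowest mutant value was 17.9 times the highest wild-type value. On the log2 scale the levels were 5.06, 4.83 and 4.24 in wild type and 9.45, 9.31 and 9.22 in mutants. The means were 4.71 ± 0.42 and 9.33 ± 0.12 (SD, n = 3), a difference of 4.62.

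The mutant arrays lay within 0.23 log2 units of each other and the wild-type arrays within 0.82. The gap from the highest wild-type to the lowest mutant array was 4.16, so it exceeded the spread inside either genotype. Wild-type replicate 1, the array most like the mutants over all genes, had the highest wild-type Spink4 value. Without it the difference was 4.79 and the gap 4.39.

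The measured means give a ratio of 24.6, but the wild-type level was under the filter, where a reading is not taken as a measured amount. Counted from the filter level instead, Spink4 was at least 8.15-fold higher in mutants. The gene entered the filtered comparison through its mutant arrays alone, with a mean over the 6 arrays of 7.02.

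**Figure D1:**
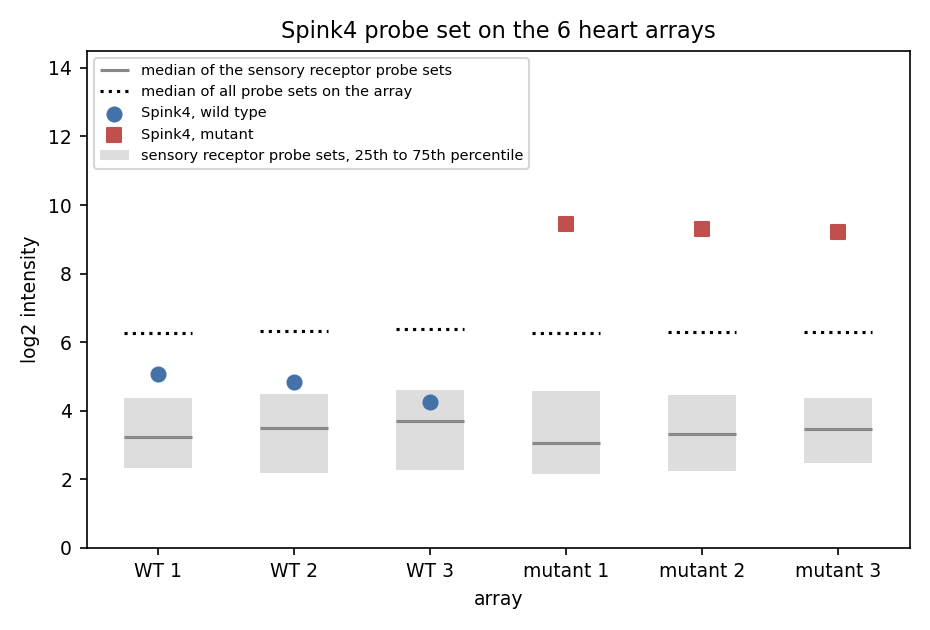
Log2 intensity of the Spink4 probe set (points) on each of the 6 arrays, with the array median of all probe sets (dotted) and the 25th to 75th percentile of 77 olfactory and vomeronasal receptor probe sets (grey bars, median as a line). Wild-type values of 4.24 to 5.06 lie under the array medians, above the grey bar in replicates 1 and 2 and inside it in replicate 3. Mutant values of 9.22 to 9.45 lie above the array medians and above the grey bars.

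Ranks within each array do not depend on the scaling between arrays. From the brightest down, Spink4 held rank 29873, 31442 and 34917 of 45037 in wild-type replicates 1, 2 and 3. In mutants it held rank 6687, 7242 and 7534. In other terms, 33.7%, 30.2% and 22.5% of all probe sets were dimmer than Spink4 in wild type, and 85.2%, 83.9% and 83.3% were dimmer in mutants. A rank sets probe sets of unequal affinity side by side, so it places the signal on the array and is no measure of transcript number.

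Receptors of the nose served as a guide to the signal of transcripts that the heart is not known to make. The 77 olfactory and vomeronasal receptor probe sets had array medians of 3.23, 3.50 and 3.70 log2 units in wild type. Spink4 was brighter than 66, 61 and 48 of them there, and brighter than 77 of 77 on each mutant array. The highest receptor reading on any wild-type array was 7.76. The wild-type Spink4 signal thus lay inside the range of these receptors, in its upper part. No detection call was used, so the wild-type readings do not show that the transcript was absent there.

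Among all probe sets, Spink4 had the widest gap between genotypes in the direction of higher mutant values. The genotypes did not overlap with mutants higher for 3408 of 45037 probe sets (7.57%) and with mutants lower for 3988 (8.85%). A gap of more than 1 log2 unit was seen for 45 probe sets with mutants higher and 43 with mutants lower. More than 2 log2 units separated the genotypes for 6 and 2 probe sets, more than 3 for 2 and 0, and more than 4 for Spink4 alone. By the size of the difference of means Spink4 came second, after Psca. Without mutant replicate 2 its gap ranked 2 and its difference 4. Its difference ranked 1 without wild-type replicate 1, without mutant replicate 1 or 3, and with an offset of 16 before the logarithm. The order of the leading genes thus depended on the arrays used and on how low values were treated.

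Psca, a small glycolipid-anchored surface protein of epithelia, was named after its values were seen. Its probe set read 2.72, 3.41 and 2.63 log2 units in wild type and 8.33, 6.64 and 8.09 in mutants. The difference was 4.77 and the gap 3.23, with a mutant SD of 0.92 against 0.12 for Spink4. The third-widest gap with mutants higher, 2.31, belonged to a probe set of Ubxn10 whose mutant values of 4.54 to 5.45 stayed under the filter, while another Ubxn10 probe set, read at 6.37 to 6.88 on the 6 arrays, had a difference of -0.16. The fourth, 2.27, belonged to Arfgef3, which read 4.32 to 4.89 in wild type and 7.16 to 7.38 in mutants, and its other probe set had a difference of 2.17. The widest gap in the other direction was 2.75, in a probe set of Fzd6, a Frizzled receptor, read at 3.10 to 3.76 in wild type and 0 to 0.36 in mutants.

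**Figure D2:**
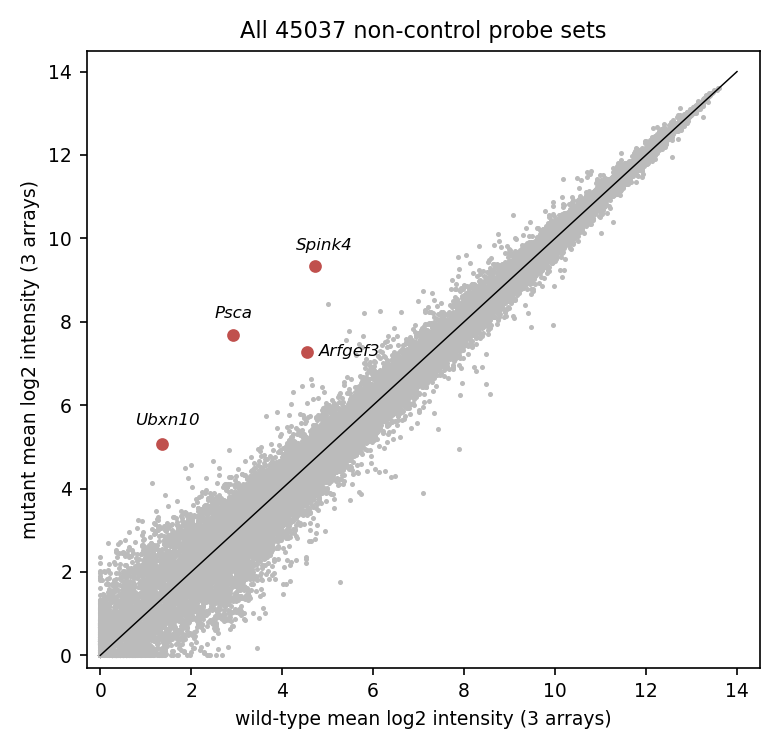
Mean log2 intensity over 3 mutant arrays (vertical axis) against that over 3 wild-type arrays (horizontal axis) for the 45037 non-control probe sets, with the line of equal means and the 4 widest gaps with mutants higher in red. Spink4 (4.71 in wild type, 9.33 in mutants) and Psca (2.92 and 7.69) lie farthest above the line.

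A change from low to bright was rare. Probe sets under the array median on all 3 wild-type arrays and above the 75th percentile on all 3 mutant arrays numbered 1 of 45037 (0.00222%), which was Spink4. The reverse pattern had 0. Without mutant replicate 2 the count was 2, because the lung gene Scgb3a2 then also met the rule. When mutants needed only to exceed the array median, 78 probe sets met it and 65 met its reverse. This pattern was defined after the Spink4 values were known and is a description of where the gene stands.

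No other SPINK gene measured had a mean above the filter. Of the 12 others on the list, 6 had a probe set, 4 of them under the filter on all 6 arrays, and Spinkl, a SPINK-like gene, was added after its values were seen. Of these 7 genes 0 entered the main comparison. Spink1, the pancreatic trypsin inhibitor, read 4.76 to 5.06 log2 units in wild type and 4.26 to 4.93 in mutants. Spink2, known from the testis as an inhibitor of sperm acrosin, read 5.85, 6.83 and 6.04 in wild type and 6.33, 5.68 and 5.85 in mutants. Spink5, which restrains kallikreins of the skin, read 2.52 to 3.55 and 2.26 to 2.92. In these 3 genes the genotypes overlapped.

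Spink8 was at 6.37, 6.56 and 6.61 in wild type and 5.92, 5.62 and 6.51 in mutants, a difference of -0.50, and so above the filter on every wild-type array and on 1 mutant array. Spink12 differed by -0.29 and Spink10 by 1.10, both with overlapping genotypes. Spinkl read 0 to 1.85 in wild type and 2.00 to 3.49 in mutants, a range near the floor of the arrays. In the fit without a filter, where limma called 81 of 18193 genes (0.445%), 0 of these 7 genes were called, with adjusted p from 0.379 for Spinkl to 0.808 for Spink5. An unadjusted p under 0.05 was found for 1 of the 7 and for 11.9% of all genes in that fit.

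The tested genes beside Spink4 did not share its step. The 6 genes with a probe set on each side of it on chromosome 4 were taken in the order of assembly GRCm38.p6. Of these 12 genes 8 were tested, and limma called 0 of them, where 1.76% of all tested genes were called (196 of 11113), while 1 of the 8 had an unadjusted p under 0.05, against 14.7% of all tested genes (1636). Their differences ran from -0.13 for Nol6 to 0.15 for Chmp5, with a median of 0.04 against -0.01 over all genes tested.

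The nearest gene after Spink4 with a probe set was Bag1, a co-chaperone that regulates Hsp70, which read 11.17, 11.45 and 11.09 in wild type and 11.41, 11.40 and 11.26 in mutants. Its difference was 0.12 (SE 0.09, limma adjusted p = 0.581), and the genotypes overlapped. The nearest before it was B4galt1, a galactosyltransferase of the Golgi, which read 10.14, 10.43 and 10.20 against 10.36, 10.20 and 10.34, a difference of 0.05 (SE 0.09, limma adjusted p = 0.848). Chmp5, a component of the ESCRT-III membrane-cutting machinery, had 0.15 (SE 0.06, limma adjusted p = 0.317), the smallest p among the 8, and its genotypes did not overlap, which held for 21.2% of all tested genes. Dnaja1, Smu1, Aptx and Nfx1 had differences of 0.10, 0.01, 0.04 and -0.10. The water channel genes Aqp7 and Aqp3, Tmem215 and Gm6297 had means under the filter. Aqp7 read 4.15 to 4.53 in wild type and 3.08 to 4.23 in mutants. Over all 27 probe sets of the 12 genes the differences ran from -1.15 (Aqp3) to 1.57 (Tmem215), both in probe sets far under the filter. That Tmem215 probe set read 0.80, 1.65 and 0.77 in wild type and 1.78, 2.85 and 3.29 in mutants. Other probe sets of Tmem215 had differences of -0.87 and 0.02, and another of Aqp3 had 1.19.

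**Figure D3:**
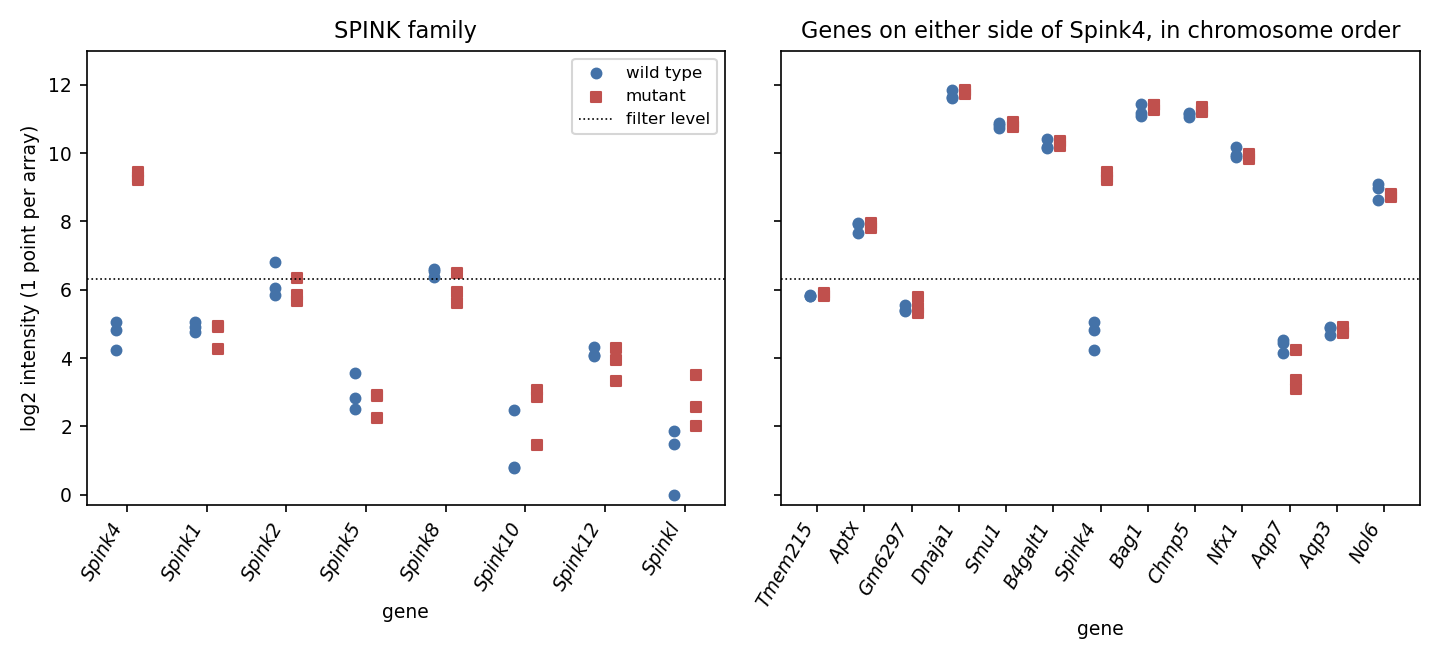
Log2 intensity of 1 probe set per gene, the one with the highest mean, with 1 point per array (circles wild type, squares mutant, dotted line the filter level of 6.30). Left, Spink4 and 7 other SPINK genes; right, Spink4 among 6 genes on each side of it in chromosome order. Spink4 is separated by 4.16 log2 units, while the differences of the 8 tested neighbours lie between -0.13 and 0.15.

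Markers of the cells that usually make Spink4 were mostly under the filter. Counts in the marker lists are read against all tested genes, of which 1.76% were called and 14.7% had an unadjusted p under 0.05. Of 20 goblet and mucous cell genes 19 had a probe set, and 14 were under the filter on all 6 arrays. Muc2, the gel-forming mucin of goblet cells, read 4.37, 5.11 and 4.85 log2 units in wild type and 4.71, 4.58 and 5.03 in mutants. Tff3, the trefoil peptide secreted with it, read 3.37 to 4.55 and 2.58 to 4.44. Spdef and Atoh1, transcription factors of the secretory lineage, read 2.32 to 2.65 and 4.63 to 5.75 in wild type and 2.48 to 2.91 and 5.15 to 5.45 in mutants.

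In each of these 4 genes the genotypes overlapped. Ern2, an endoplasmic reticulum stress sensor of mucous cells, read 0, 1.69 and 0 in wild type and 0.11, 1.94 and 0.63 in mutants. Muc5b, under the filter, read 4.52 to 4.82 in wild type and 4.21 to 4.44 in mutants, a difference of -0.33. Its genotypes did not overlap, which held with mutants lower for 8.85% of all probe sets. The summed intensity of the 19 genes was 946 to 988 in wild type and 889 to 905 in mutants. Of the 4 that were tested 0 were called by limma, with a median difference of -0.03, and 1 had an unadjusted p under 0.05. That was Sytl2, a vesicle-tethering protein, with -0.46 (adjusted p = 0.0624), a fall that did pass without wild-type replicate 1 (adjusted p = 0.0398). Creb3l1 had 0.14.

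Gut epithelium markers were also low, with 21 of 24 under the filter on every array and a summed intensity of 830 to 1147 in wild type and 832 to 988 in mutants. Vil1, of the brush border, read 4.12 to 5.00 and 4.23 to 4.75, and Cdx1, an intestinal transcription factor, was at 0 on 2 wild-type arrays and 1 mutant array. Of the 2 genes tested, Tff1 and Epcam, 0 passed and 1 had an unadjusted p under 0.05, with differences of -0.46 (limma adjusted p = 0.221; 0.026 without wild-type replicate 1) and -0.03.

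Most lung markers were low on all arrays, and a few were high on 1 or 2 of the mutant arrays, while Spink4 was high on all 3. Of 16 lung genes 11 were under the filter on every array, and the genotypes did not overlap in 0 with mutants higher and in 1 with mutants lower (Sftpd, a difference of -0.38). Over all probe sets these shares were 7.57% and 8.85%. Scgb3a2, a secretoglobin of the airways, read 4.83, 4.81 and 5.40 in wild type and 9.03, 4.87 and 11.36 in mutant replicates 1, 2 and 3. The summed intensity of the 16 genes was 514 to 731 in wild type and 1032, 568 and 4175 in mutants. Without Scgb3a2 the sums were 486 to 689 in wild type and 510, 539 and 1544 in mutants. On mutant replicate 2, where Scgb3a2 and these sums lay within their wild-type ranges, Spink4 read 9.31. Whether lung tissue contributed to the Spink4 signal was not tested. Sftpc, a surfactant protein, exceeded its wild-type range of 5.86 to 6.53 by more than 1 log2 unit on mutant replicate 3 alone, at 9.43. Its other probe set, far under the filter, had a difference of -0.03. Cbr2 read 4.26 to 4.71 in wild type and 5.80, 4.33 and 8.01 in mutant replicates 1, 2 and 3. Ager read 3.22 to 3.97 in wild type and 4.33, 3.84 and 5.61 in mutants. Cbr2 and Ager had means under the filter and were not tested. The surfactant gene Sftpb and the secretoglobin gene Scgb3a1 had differences of -0.14 and 0.00, and Nkx2-1, a transcription factor of lung epithelium, was at 0 on 1 wild-type and 1 mutant array. Of 4 lung genes tested limma called 0 and 1 had an unadjusted p under 0.05. This was Scgb3a2, which did not pass (adjusted p = 0.253 by limma) except without mutant replicate 2 (0.00701). Reg3g, an antimicrobial lectin on the gut list, was at 0, 0.48 and 0 in wild type and at 2.29, 0 and 5.76 in mutants. Its order over the mutant arrays was that of Scgb3a2.

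The thymus and liver lists had 0 of 2 and 0 of 1 tested genes called by limma (1 and 0 at an unadjusted p under 0.05), and summed intensities of 616 to 708 and 364 to 618 in wild type against 645 to 666 and 401 to 484 in mutants. Cd8a, Krt5 and Ttr had differences of -0.34, -0.08 and 0.03.

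Among the marker lists of cells other than cardiomyocytes, only that of mesothelium and epicardium had a higher summed intensity on each mutant array than on any wild-type array. Its 16 genes had summed intensities of 8666 to 9249 in wild type and 10770 to 11841 in mutants, and 14 were above the filter on every array. Limma called 7 of the 16 higher and 0 lower, where 1.39% of all tested genes were called higher and 0.369% lower. The keratin genes Krt8, Krt18 and Krt19 were among those called. The list was chosen with earlier results of these data known, so its counts are a description. The median difference was 0.48, against -0.01 over all genes tested. Of the 16, 12 had an unadjusted p under 0.05, against 14.7% of all tested genes. The number of called genes was 4 without wild-type replicate 2, 3 without wild-type replicate 3, and 3 and 4 without mutant replicates 1 and 3. The summed intensity of the cardiomyocyte markers was 101928 to 105306 in wild type and 106438 to 108315 in mutants, also without overlap. Of the 16 differences 12 were positive and 4 negative. The negative ones were those of Wt1 (-0.06), Tbx18 (-0.11), Tcf21 (-0.09) and Aldh1a2 (-0.22), genes known from the epicardium, none of them called and all with overlapping genotypes. Krt18, a keratin of simple epithelia, read 8.24, 7.83 and 8.08 in wild type and 9.61, 9.58 and 9.58 in mutants (difference 1.54, limma adjusted p = 0.000721). Msln, a surface protein of mesothelium, read 7.88, 8.45 and 8.24 against 9.48, 8.99 and 9.05 (difference 0.98, limma adjusted p = 0.0286). Its call ended without wild-type replicate 3 and without mutant replicate 1 or 3 (limma adjusted p of 0.0932, 0.120 and 0.0967). Whether cells of the mesothelium or epicardium carry the Spink4 signal was not tested.

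**Figure D4:**
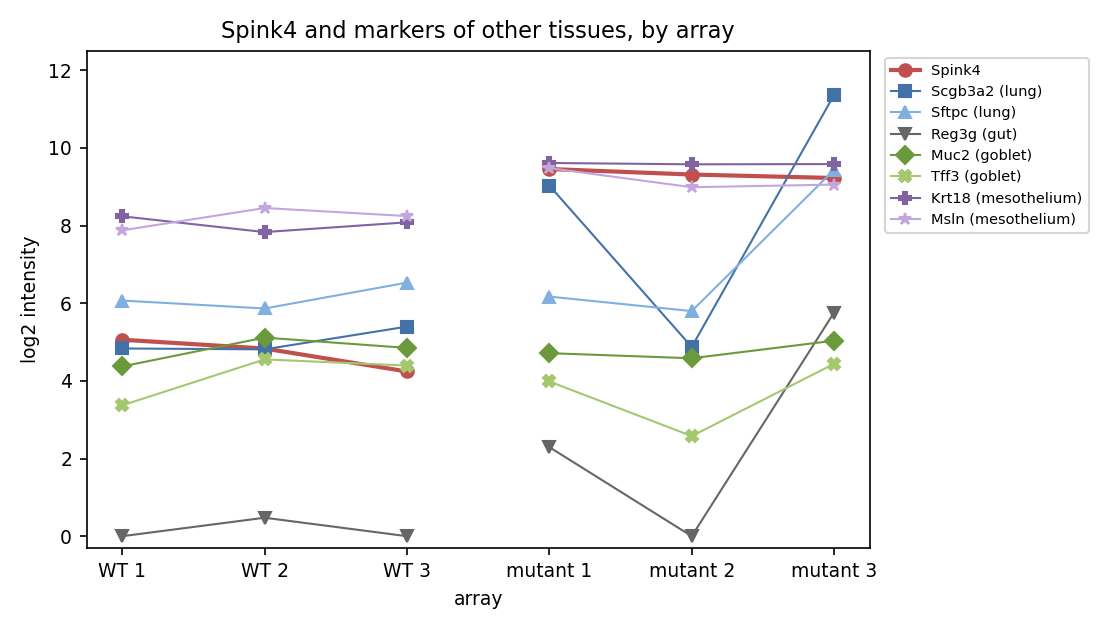
Log2 intensity by array for Spink4, lung (Scgb3a2, Sftpc), gut (Reg3g), goblet cell (Muc2, Tff3) and mesothelial (Krt18, Msln) markers. Lines join the values of a gene within a genotype and imply no order. Krt18 and Msln are called members of their list, and Wt1, Tbx18, Tcf21 and Aldh1a2, with small negative differences, are not drawn. Spink4 is at 9.22 to 9.45 on the 3 mutant arrays, while Scgb3a2 falls to 4.87 on mutant replicate 2.

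Proteases that a Kazal inhibitor could meet were looked at next. Of 65 serine proteases of the trypsin fold 61 had a probe set, 45 were under the filter on all arrays and 12 were tested. Limma called 2 higher and 0 lower (1 higher without mutant replicate 1), against 1.39% and 0.369% of all tested genes, and the median difference was 0.15. Of the 12, 4 had an unadjusted p under 0.05, against 14.7% of all tested genes. Corin, the transmembrane protease that activates the atrial natriuretic peptide in the heart, read 11.04, 11.01 and 11.12 in wild type and 11.60, 11.47 and 11.46 in mutants. The rise was 0.45 (SE 0.06, limma adjusted p = 0.0113), and it did not pass without mutant replicate 1 (0.0762). Masp1, a protease of the lectin complement pathway, rose from 8.32 ± 0.28 to 9.83 ± 0.04 (SD, n = 3; limma adjusted p = 0.00168), and its other 4 probe sets had differences of 0.17 to 1.40.

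Among digestive and kallikrein proteases, Prss2, a pancreatic trypsinogen, read 6.02 to 6.14 in wild type and 5.95 to 6.35 in mutants. Klk1, tissue kallikrein, read 5.28 to 5.92 and 5.09 to 5.80. In both the genotypes overlapped. They did not overlap in Cela2a, Klk6, Ctrl and Cela3b, with differences of 1.23, 0.77, -0.41 and -0.21. The first 3 of these were under the filter, and Cela3b was not called (limma adjusted p = 0.486). Over all probe sets, non-overlap was seen for 7.57% with mutants higher and 8.85% with mutants lower.

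Of 22 proteins that carry Kazal or follistatin-type domains, 13 were tested and limma called 1, against 1.76% of all tested genes. Htra1, a secreted protease with such a domain, read 9.56, 9.78 and 9.67 in wild type and 10.29, 10.19 and 10.14 in mutants, a rise of 0.54 (SE 0.08, limma adjusted p = 0.0179). It did not pass without wild-type replicate 3 or without mutant replicate 1, 2 or 3 (adjusted p of 0.0761, 0.123, 0.0694 and 0.0534). The median of the 13 was 0.18, and 6 of them had an unadjusted p under 0.05, against 14.7% of all tested genes. The largest difference of the 22, 2.03, was that of Spock3, which was not tested because its mean was under the filter. It read 5.19, 3.62 and 4.50 in wild type and 6.86, 6.03 and 6.51 in mutants. Such non-overlap with mutants higher held for 7.57% of all probe sets. In the fit without a filter Spock3 was not called (limma adjusted p = 0.105).

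Among 18 tested serpins, Kunitz and other protease inhibitors limma called 1, against 1.76% of all tested genes, and the median difference was 0.11. Of the 18, 5 had an unadjusted p under 0.05, against 14.7% of all tested genes. Serpinb1a, an inhibitor of neutrophil proteases, rose by 0.72 (SE 0.14, limma adjusted p = 0.0440). Its call ended when any 1 of the 6 arrays was left out (adjusted p of 0.0505, 0.107 and 0.0665 without wild-type replicates 1, 2 and 3, and 0.212, 0.095 and 0.160 without mutant replicates 1, 2 and 3).

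The factors that the allele concerns were measured on the same arrays. Zfpm2 was the 1 of 6 tested GATA and FOG genes that was called, against 1.76% of all tested genes. An unadjusted p under 0.05 was found for 4 of the 6, against 14.7% of all tested genes. The 6 differences had no common direction, with 3 positive and 3 negative (-0.50 to 0.50). Zfpm2 read 10.07, 10.13 and 10.14 in wild type and 10.59, 10.55 and 10.52 in mutants, a rise of 0.44 (SE 0.06, limma adjusted p = 0.0134). The call ended without wild-type replicate 3 (adjusted p = 0.0532) and without mutant replicates 1 and 2 (0.115 and 0.0699). Of 14 tested NuRD subunits limma called 0, with a median difference of -0.04, and 1 had an unadjusted p under 0.05, against 14.7% of all tested genes. Chd4, the main ATPase of NuRD, had -0.25 (limma adjusted p = 0.278), or 0.02 as the mean over its probe sets, and Chd3 had 0.24.

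The genes whose values over the 6 arrays were most like those of Spink4 were found by Pearson correlation among 11112 tested genes. With 2 separated groups of 3 arrays, this measure mostly reflects the genotype step, so it is a description and the differences of these genes carry no test here. Of all tested genes 152 (1.37%) had r of at least 0.95 and 79 (0.711%) had r of at most -0.95. F11r, which encodes the tight junction protein JAM-A, came first at r = 0.999, with 9.94, 9.88 and 9.78 in wild type and 10.61, 10.56 and 10.55 in mutants. These 6 values stood in the same order as those of Spink4, which held for 68 of the 11112 genes (0.612%). Its second probe set, under the filter, had a difference of -0.17.

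Next came Scd2, a fatty acid desaturase (r = 0.998), Hacd4, an enzyme of very long chain fatty acid synthesis (0.994), and Arsb, a lysosomal sulfatase (0.993). Plppr5 and Vezf1, a zinc finger factor of blood vessels, followed at 0.992 each, and Rapgef5 and Epha2, an ephrin receptor, at 0.992 and 0.991. Their steps were far smaller, from 0.17 log2 units for Vezf1 to 1.51 for Plppr5. Hacd4 read 7.91, 7.70 and 7.60 in wild type and 9.07, 9.08 and 8.86 in mutants, a difference of 1.27. Other probe sets of Arsb and Vezf1 above the filter had differences of -0.20 and -0.10.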

How the data were processed

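Total RNA of 6 samples of embryonic heart was hybridised to 1-colour Affymetrix mouse arrays, per the labels' protocols. The authors' deposited values are linear probe set intensities, already on a similar scale (array medians 77.4 to 84.1). Which software and normalization made them is not given in the sources used here. The number of arrays limits the precision.

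Values under 1 were raised to 1 before log2 was taken. Genes came from the platform annotation, where 34945 probe sets have 1 symbol, 932 several and 9160 none. GRCm38.p6 was used only for gene names and order, since no build is named for the arrays. The brightest probe set by mean over the 6 arrays stood for a gene, and only genes with a mean above that of the median probe set (6.30) were tested. The genotype test was limma's (version 3.58.1, R 4.3.3; lmFit and eBayes with an intensity trend, two-sided), adjusted by Benjamini-Hochberg over all 11113 genes, with a call at an adjusted p under 0.05. The fit was tested on simulated data. SE is limma's. Means of 1 genotype are given with the SD of 3 arrays.

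Spink4, the gene lists and the tests were chosen with earlier results of these data known. Named were Spink4, all SPINK genes with a probe set, 6 neighbours with a probe set on each side, the 8 genes most like it (predicted genes skipped), and from each other list up to 6 called members or the 2 with the smallest p. Other genes, among them further members of the marker and protease lists, were chosen after their values were seen, to show the defining members of a list. Alternatives covered normalization, offset, filter, probe sets, variance model, array weights, the replicate number as a block and each array left out.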

Additional observations from a re-analysis of the deposited data

How the results depend on the processing

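The Spink4 difference stayed between 4.38 and 4.79 and its gap between 4.15 and 4.39 under quantile normalization, median centring and each array left out. An offset of 16 before the logarithm, which by construction shrinks steps from low values, gave 3.96 and 3.64. The gap ranked 1 to 2 among probe sets and 1 to 2 probe sets went from low to bright when an array was left out, the second rank and the second probe set both without mutant replicate 2. With mutants above the median only, 78 did. The count of 196 called genes was 81 without a filter, 106 with a filter at the 75th percentile, 125 with the mean over probe sets, 119 without the intensity trend, 429 with array weights and 37 to 451 when an array was left out (fewest without mutant replicate 1, most without wild-type replicate 1). The cause was not tested. Same-numbered arrays did not deviate together in every pair (correlations of -0.06, 0.13 and 0.41), so the numbers were not taken as pairs. With the replicate block the Spink4 difference was 4.62 and 234 genes were called. Alternatives were followed gene by gene for the members and neighbours taken by the naming rule. Of the 11 called among them, 4 were called in every alternative that tested them and 0 changed sign, and of the 21 uncalled, 17 were called in none. Signals under the filter bound what can be said of low levels.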
